A study of Danio rerio with 6 samples.

Results

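CTCF binding in wild-type (WT) zebrafish embryos was compared between 48 and 24 h post fertilization (hpf), using the 2 libraries titled as WT at 48 hpf and the 2 titled as WT at 24 hpf. These are 4 of the 6 libraries of the series, and their deposited lists hold 158006 peaks. The 48 hpf group and the 24 hpf group were both whole embryos without a ctcf mutation or a treatment, so that every value is a mixture over all cell types of the embryo, and a change in the share of a cell type cannot be told apart from a change of binding within a cell. Chromatin of pooled embryos was immunoprecipitated with a rabbit antibody raised against the C-terminal part of zebrafish CTCF and tagged by Tn5 transposase on the beads (ChIPmentation). The labels name the antibody for 24 hpf replicate 1, and the methods of the study name 1 antibody for the assay. No label says that replicates came from separate clutches, so p-values measure only the spread between these samples, which may be technical.

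CTCF is a zinc-finger protein that binds a long DNA motif and holds cohesin at that position, where the pair anchors chromatin loops and the boundaries of topologically associating domains. It binds in most cell types of vertebrates, and many of its positions are shared between tissues, while others are occupied in some cell types and not in others. At 24 hpf the zebrafish body plan is laid out and organs are forming, and at 48 hpf the main organs are in place and differentiating.

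A peak was a stretch of the genome in which the authors' call found more fragments than the local background, and its summit was the position of the highest pileup of fragments. A site of a stage was a region of peaks, joined where they overlapped by at least 1 bp, that held a peak of each replicate. This gave 23959 sites at 48 hpf and 22498 at 24 hpf. Their order does not carry over to single libraries, where 24 hpf replicate 2 had fewer peaks than either 48 hpf library and 24 hpf replicate 1 had more. All positions are given 1-based on GRCz10 (danRer10). Genes, exons and motifs at the sites were not analysed here.

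The libraries differed in depth, and 1 stood apart. The lists held 31014 and 33130 peaks in the 48 hpf replicates, against 67512 in 24 hpf replicate 1 and 26350 in 24 hpf replicate 2. The background over the genome, recovered from the peak values as fragments per 10 kb, was 19.8 and 17.9 in the 48 hpf replicates, and 44.0 and 12.4 in the 24 hpf replicates. The deepest and the shallowest library were thus both 24 hpf libraries, with the 48 hpf libraries between them. Of the 76941 regions formed by merging all 4 lists, 33705 (43.8%) held a peak of 24 hpf replicate 1 alone. Values without this library are given beside the site numbers, the shared regions, the summit distances, the widths, the spacing and the chromosome shares.

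Under the rule of a peak in each replicate, the same positions made up the bulk of the sites at both stages. Merging the sites of both stages gave 28479 regions, of which 17835 (62.6%) held a site of each stage, 5997 held a 48 hpf site only and 4647 held a 24 hpf site only. When the single 24 hpf replicate 2 stood for its stage, 58.0% of the regions were shared, and when the deep 24 hpf replicate 1 did so, 32.8% were. With a peak in either replicate at both stages, 42.5% were shared. Nearly every shared region paired 1 site with 1 site (17696 of them). The remaining ones joined several 48 hpf sites that overlapped a single 24 hpf site in 123 cases. In 16 cases they joined several 24 hpf sites that overlapped a single 48 hpf site. Sites were wider at 24 hpf, with a median of 398 bp, against 317 bp at 48 hpf.

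Counted over single libraries, 17943 regions (23.3% of the 76941) held a peak in all 4. A peak in both 48 hpf replicates and in 24 hpf replicate 1, but none in the shallow 24 hpf replicate 2, was found in 4716 regions, and a peak in both 48 hpf replicates and in 24 hpf replicate 2, but none in the deep library, in 491. Regions with peaks of both 48 hpf replicates and of no 24 hpf library numbered 822 (1.07%). Those with peaks of both 24 hpf replicates and of no 48 hpf library numbered 1923 (2.5%). Absence at 24 hpf was judged against the deep library and absence at 48 hpf was not, so these numbers do not rank the stages. The regions of all 4 libraries were the widest, with a median of 444 bp, against 225 bp for those of both 48 hpf replicates only and 285 bp for those of both 24 hpf replicates only. Regions of a single library had median widths of 156 and 156 bp in the 48 hpf replicates, and 206 and 160 bp in the 24 hpf replicates. These widths span all joined peaks of a region, so that joining peaks of more libraries widens it by construction. They are not read as a property of the shared positions.

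Whether a site was found at the other stage followed its strength. Strength was taken as the mean percentile of fold enrichment (summit pileup over local background) within each replicate's own list, since the values are not normalized between libraries. Among the weakest 10% of the 48 hpf sites, 40.4% overlapped a 24 hpf site, and among the strongest 10%, 99.4% did. Of the 24 hpf sites, 47.0% of the weakest 10% and 99.4% of the strongest 10% overlapped a 48 hpf site, and the share increased over every step between. Asking for a peak of a single library changed the weak end. In the weakest 10% of the 48 hpf sites, 83.4% overlapped a peak of 24 hpf replicate 1 and 43.7% a peak of 24 hpf replicate 2. In the weakest 10% of the 24 hpf sites, 58.2% and 61.4% overlapped a peak of 48 hpf replicates 1 and 2. The number of sites with no peak in either library of the other stage was 292 in the weakest 10% of the 48 hpf sites and 1 in the strongest 10%, against 619 and 3 in those of the 24 hpf sites. Here too, only absence at 24 hpf was judged against the deep library.

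**Figure D1:**
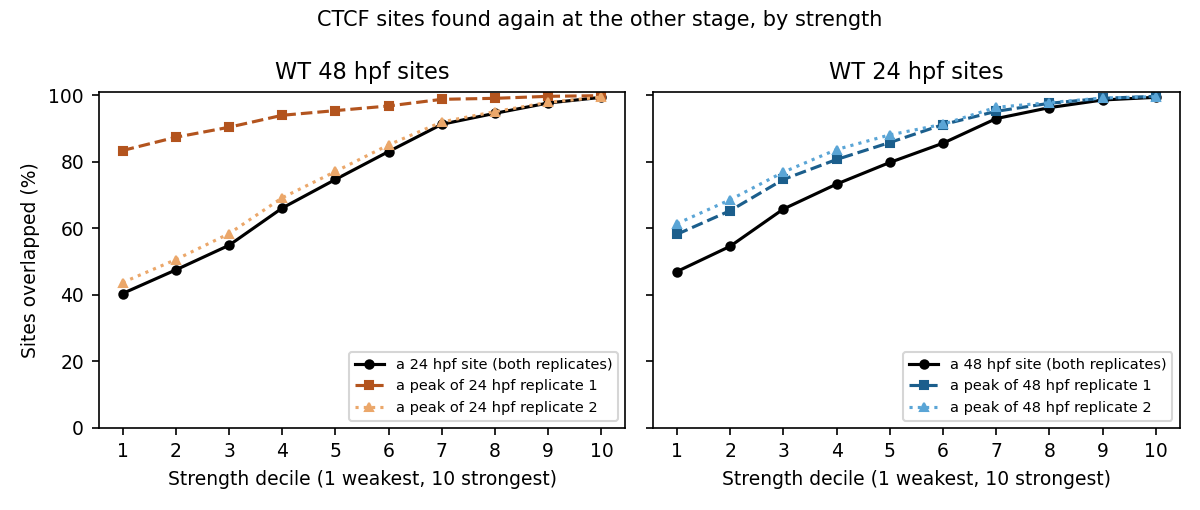
Share of sites (%, y axis) that were found again at the other stage, by strength decile (x axis, 1 weakest to 10 strongest), for 48 hpf sites (left) and 24 hpf sites (right). Black points ask for a site of both replicates of the other stage, and coloured points for a peak of 1 replicate; at the weak end of the left panel the curves for 24 hpf replicate 1 (83.4%) and replicate 2 (43.7%) lie far apart, and all curves meet near 100% at the strong end.

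The strongest shared sites were those with the highest mean percentile over the 4 lists, a choice that sets them high in every library. On chromosome 6, chr6:52326203-52326599 was enriched 30.5-fold and 30.4-fold in the 48 hpf replicates, against 30.2-fold and 29.8-fold in the 24 hpf replicates. On chromosome 16, chr16:5876474-5876833 had values of 28.7 and 30.7 at 48 hpf, against 33.4 and 27.4 at 24 hpf. On chromosome 17, chr17:3885975-3886381 had 31.9 and 31.8 at 48 hpf, against 29.0 and 27.2 at 24 hpf. Both 48 hpf values were the higher ones at the sites of chromosomes 6 and 17, and at a site of chromosome 8 given next. At the site of chromosome 16 both 48 hpf values lay between the 24 hpf values. These values are not normalized between libraries, and the share of all regions with such an order is not given here. Fold enrichment was 29.5 and 28.6 at 48 hpf, against 31.1 and 29.3 at 24 hpf, for chr5:63977502-63978007. It was 31.2 and 31.0 at 48 hpf, against 28.2 and 28.3 at 24 hpf, for chr8:52616101-52616483. The values of these 5 sites are a description. At the chromosome 17 site the summits lay at 3886213 and 3886213 in the 48 hpf replicates, against 3886178 and 3886211 in the 24 hpf replicates.

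The strongest sites without any peak at the other stage reached the upper part of their lists. At 48 hpf these were chr15:24741077-24741305, whose fold enrichment was 20.8 and 25.1 in the replicates, chr6:40720565-40720804, with 18.7 and 16.0, and chr11:35442884-35443275, with 17.9 and 16.3. The first stood at percentiles 93.3 and 98.7 of the 48 hpf lists, with 36 and 48 fragments at its summit, which was at 24741191 in both replicates. At 24 hpf they were chr11:24339730-24340326, whose fold enrichment was 23.0 and 16.8, chr3:56310319-56310673, with 31.8 and 15.2, and chr4:28539845-28540266, with 22.1 and 15.9. The summit of the chromosome 3 site held 150 fragments in 24 hpf replicate 1 and 22 in 24 hpf replicate 2. Each of these sites was chosen for its strength at 1 stage and its absence from the lists of the other, and the lists do not show how far below the threshold the other stage lay.

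A total of 16803 regions had exactly 1 peak in every library and could be compared as the same position measured 4 times. Over these, the summit pileup had a median of 26 and 26 fragments in the 48 hpf replicates, against 40 and 16 in the 24 hpf replicates. Divided by the genome background of its library, it came to 92.6 and 102 at 48 hpf, against 57.2 in 24 hpf replicate 1 and 90.9 in 24 hpf replicate 2. The deep library thus had the lowest pileup for its background, and the other 24 hpf library was close to the 48 hpf replicates. Spearman's rho of fold enrichment across these regions, which share position and base composition, was 0.833 between the 48 hpf replicates and 0.447 between the 24 hpf replicates. Between stages it was 0.537 and 0.533 for the 48 hpf replicates with 24 hpf replicate 1, and 0.63 and 0.632 with 24 hpf replicate 2. The 24 hpf replicates were therefore less alike than any pair of libraries from different stages.

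At a small share of the regions the rank in all libraries separated the stages. Ranks were first taken within whole lists, whose lengths differ, so that the median percentile of these regions was 70.1 and 72.1 in the 48 hpf lists, against 79.0 and 64.0 in the 24 hpf lists. A percentile at least 20 points higher in both 48 hpf libraries than in both 24 hpf libraries was found at 402 regions (2.39%), and a percentile at least 20 points lower at 444 (2.64%). Ranked over the same 16803 regions in every library, so that list length does not enter, the counts were 667 higher (3.97%) and 601 lower (3.58%), of which 262 and 316 were also called by the first ranking. The widest gaps of the first ranking, chosen after their values were seen and given as a description, were at chr5:5889267-5889572, with percentiles of 72.1 and 79.0 at 48 hpf, against 9.76 and 4.42 at 24 hpf, and at chr24:41395577-41396076, with 64.8 and 63.7 at 48 hpf, against 3.91 and 0.554 at 24 hpf. In the other direction, chr5:56281705-56282201 had percentiles of 32.9 and 33.6 at 48 hpf, against 97.0 and 92.5 at 24 hpf. Its summit pileup was 11 and 11 fragments at 48 hpf, against 78 and 26 at 24 hpf. chr1:45859750-45860311 had percentiles of 6.06 and 5.16 at 48 hpf, against 61.9 and 62.2 at 24 hpf. Ranked over the same regions, this last site had percentiles of 1.52 and 1.05 at 48 hpf, against 27 and 47.7 at 24 hpf, and the site chr5:56281705-56282201 had 12.1 and 10.7 at 48 hpf, against 90.1 and 88.8 at 24 hpf. The stages stayed apart at each of the 4 sites in that ranking too.

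Between stages, the summits of the same region lay farther apart than between the 48 hpf replicates and nearer than between the 24 hpf replicates. The median distance was 20 bp between the 48 hpf replicates and 31 bp between the 24 hpf replicates. Between stages it was 27 and 28 bp for the 48 hpf replicates with 24 hpf replicate 1, and 25 and 25 bp with 24 hpf replicate 2. The mean over the 4 pairs between stages was 26.25 bp, and over the 2 replicate pairs 25.5 bp. Without 24 hpf replicate 1 the between-stage mean was 25 bp, against 20 bp for the remaining replicate pair, which is of 48 hpf. Without 24 hpf replicate 2 it was 30 bp, against 22 bp for that pair. The 48 hpf replicates were thus nearer to each other than to either 24 hpf library, and the equality of the overall means rests on the 24 hpf pair. The signed distance had a median of 0 bp in all 6 pairs of libraries. Summits over 100 bp apart occurred in 5.45% of the regions between the 48 hpf replicates and in 13.8% between the 24 hpf replicates, and in 7.43% to 12% between stages.

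Summit precision followed the strength of the site in every pair. The regions were split by strength into 4 equal groups. In the weakest group the summits lay a median of 31 bp apart between the 48 hpf replicates and 41 bp between the 24 hpf replicates, and in the strongest group 12 and 22 bp. Between stages the median was 37 to 39 bp in the weakest group and 16 to 20 bp in the strongest. Summits over 100 bp apart made up 0.405% of the strongest group between the 48 hpf replicates. In the 3 pairs that include 24 hpf replicate 1 they made up 5.43%, 5.52% and 5.76%, whereas in the 2 pairs between stages without it they made up 0.786% and 0.619%. The long distances at strong sites thus moved with 24 hpf replicate 1, and the part of its depth in this was not tested.

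**Figure D2:**
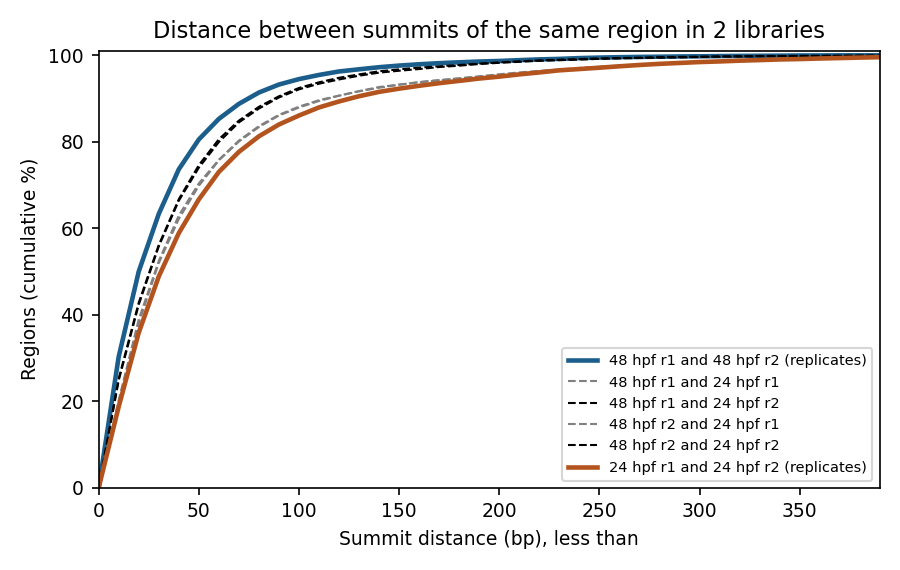
Cumulative share of the 16803 regions (%, y axis) whose summits in 2 libraries lay closer than the distance on the x axis (bp); solid thick lines are the replicate pairs within a stage and dashed lines the pairs between stages. The 48 hpf replicate pair lies highest, the 24 hpf replicate pair lowest, and the 4 between-stage pairs run between them.

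At 9651 regions (57.4%) the replicates of each stage placed the summit within 50 bp of one another. Here the mean summits of the stages lay a median of 14.5 bp apart, 6083 regions (63.0%) were within 20 bp, and 106 (1.10%) exceeded 100 bp. The choice of these regions and the averaging of 2 summits both shorten the distance. It is therefore not comparable with the distances between single libraries. Over all 16803 regions, both 48 hpf summits lay on 1 side of both 24 hpf summits with a gap of at least 50 bp at 584 (3.48%), of which 275 were toward lower and 309 toward higher coordinates. The 3 with the largest distance, chosen for it, were wide regions. At chr6:7971474-7972249 the summits were at 7971604 and 7971619 in the 48 hpf replicates, against 7971993 and 7972038 in the 24 hpf replicates, a distance of -404 bp (48 hpf minus 24 hpf). At chr14:32349242-32350017 they were at 32349839 and 32349830 at 48 hpf, against 32349452 and 32349414 at 24 hpf, a distance of 401.5 bp. At chr16:21751275-21751871 they were at 21751381 and 21751392 at 48 hpf, against 21751720 and 21751747 at 24 hpf, a distance of -347 bp. The peaks at the first region were 690 and 701 bp wide at 48 hpf, against 776 and 642 bp at 24 hpf, so that each library had 1 wide peak there whose highest point differed by stage. At the other regions the peak of 24 hpf replicate 2 was short and low. It was 269 bp wide with 10 fragments on chromosome 14, and 224 bp wide with 11 fragments on chromosome 16.

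Within a peak, the summit lay close to the midpoint in all libraries. The median offset was -3.0 and -3.5 bp in the 48 hpf replicates, against -3.0 and -3.5 bp in the 24 hpf replicates, toward lower coordinates. As a mean share of peak width it was -1.579% and -1.701% at 48 hpf, against -1.357% and -1.776% at 24 hpf, and the 48 hpf values lay between the 24 hpf values.

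The peak widths of the stages overlapped. Over whole lists the median was 238 and 238 bp in the 48 hpf replicates, against 255 and 222 bp in the 24 hpf replicates, a difference in means of -0.5 bp (exact two-sided permutation p = 1.0, n = 2 libraries each). With 2 against 2 libraries the smallest p this test can give is 0.33. Peaks over 500 bp made up 4.043% and 4.193% of the 48 hpf lists, against 10.47% and 3.651% of the 24 hpf lists.

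Over the same 16803 regions the medians were 292 and 302 bp at 48 hpf, against 400 and 254 bp at 24 hpf. The order of the 4 libraries was thus the order of their depth, apart from the 48 hpf replicates, which were nearly equal in both. The narrowest peak of a list was also wider in 24 hpf replicate 1, at 159 bp, against 142 bp in each other library. The parts of depth and of this minimum in the widths were not tested. Width increased with strength in each library: medians in the weakest and the strongest of the 4 groups were 223 and 362 bp in 48 hpf replicate 1, 229 and 373 bp in 48 hpf replicate 2, 330 and 463 bp in 24 hpf replicate 1, and 196 and 326 bp in 24 hpf replicate 2. Both 48 hpf peaks were wider than both 24 hpf peaks at 904 regions (5.38%), and narrower at 3218 (19.2%). Set against 24 hpf replicate 2 alone, both 48 hpf peaks were wider at 9274 of the same regions (55.2%) and narrower at 3655 (21.8%), so that the direction of the split turned without 24 hpf replicate 1. The difference in median width over whole lists was then 16.0 bp, with the 48 hpf peaks the wider.

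Sites join the peaks of both replicates, and their widths therefore followed the widest library. The median site was 317 bp wide at 48 hpf and 398 bp at 24 hpf, the share over 500 bp was 9.842% at 48 hpf and 27.38% at 24 hpf, and the sites covered 8.14 Mb at 48 hpf and 9.60 Mb at 24 hpf. Of the 17696 one-to-one pairs of sites, the 48 hpf site was the narrower in 79.9% and lay wholly inside its 24 hpf partner in 54.3%. Their centres were a median of 28.5 bp apart, with 70.7% within 50 bp and 1.48% over 200 bp, and the signed median was 0.5 bp.

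**Figure D3:**
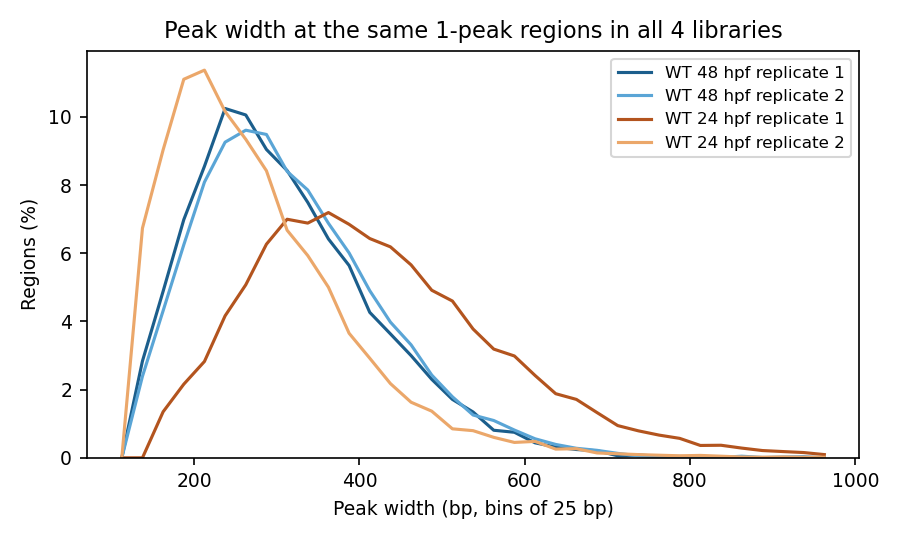
Peak width (bp, x axis, in bins of 25 bp) at the 16803 regions with 1 peak in each library, as a share of the regions (%, y axis), 1 line per library. The 48 hpf replicates (medians 292 and 302 bp) nearly coincide, between 24 hpf replicate 2 (254 bp) and 24 hpf replicate 1 (400 bp).

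The spacing of sites along chromosomes had the same form at both stages. The distance from the centre of a site to the nearest other centre had a median of 15581 bp at 48 hpf and 17106.5 bp at 24 hpf, with quartiles of 7041.5 and 33417 bp at 48 hpf and 7698.75 and 35795 bp at 24 hpf. The stage with more sites had the shorter distance. Between single libraries the distance to the nearest peak followed the number of peaks, at 12313 and 12089 bp in the 48 hpf replicates, against 6258.5 bp in 24 hpf replicate 1 and 14268.5 bp in 24 hpf replicate 2. The nearest site was over 100 kb away for 3.59% of the 48 hpf sites and 4.33% of the 24 hpf sites, and 103 gaps between consecutive sites at 48 hpf and 109 at 24 hpf were longer than 500 kb.

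Runs of neighbouring sites held most sites at both stages. Joining sites whose edges lay less than 30 kb apart, the distance the study used for clustering peaks, gave 5625 runs of at least 2 sites at 48 hpf and 5200 at 24 hpf, which held 71.6% of the 48 hpf sites and 69.1% of the 24 hpf sites. The remaining sites stood alone, 6816 at 48 hpf and 6951 at 24 hpf. The share in runs depends on the number of sites, which was higher at 48 hpf. The share for sites placed at random was not computed, so these values do not show clustering. Runs of 10 or more sites numbered 61 at 48 hpf and 58 at 24 hpf, and the longest had 36 sites at 48 hpf and 30 at 24 hpf.

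A step in the spacing at 5 kb was present in every library. Between neighbouring site centres, 336 distances of 4 to 5 kb and 569 of 5 to 6 kb were counted at 48 hpf, a ratio of 1.69. At 24 hpf the counts were 274 and 484, a ratio of 1.77. For neighbouring summits in single libraries the ratio was 1.65 and 1.67 in the 48 hpf replicates, and 1.53 and 1.68 in the 24 hpf replicates. On either side of the step the counts were nearly level: 360 distances of 3 to 4 kb and 531 of 6 to 7 kb at 48 hpf, against 254 and 496 at 24 hpf.

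The background that the call assigned to a peak changed at the same distance. For peaks with their nearest summit 4 to 5 kb away, the local background was a median of 5.01 and 5.52 times the genome background in the 48 hpf replicates, and 2.54 and 6.13 times in the 24 hpf replicates. For peaks with their nearest summit 5 to 6 kb away it was 2.73 and 2.84 times in the 48 hpf replicates, and 1.54 and 3.06 times in the 24 hpf replicates. The median summit pileup was 21 and 21 fragments at 48 hpf and 21 and 17 at 24 hpf for the nearer neighbours, and 18 and 17 at 48 hpf and 19 and 13 at 24 hpf for the farther ones. Peaks with a neighbour 4 to 5 kb away therefore had more fragments at their summit and a higher local background at both stages. The part of the local background in the step was not tested.

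**Figure D4:**
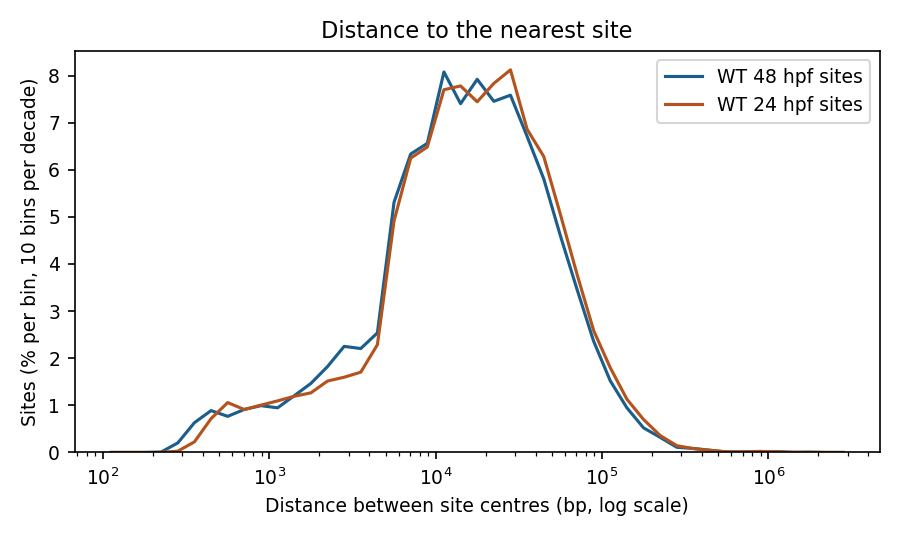
Distance from each site to the nearest site (bp between centres, log x axis) as a share of the sites (%, y axis, 10 bins per decade) at 48 hpf and at 24 hpf. Both curves step up at 5 kb and are highest between about 10 and 30 kb, with the 48 hpf curve slightly nearer to the short end (median 15581 bp, against 17106.5 bp at 24 hpf).

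Sites found at a single stage lay among the shared ones. The nearest shared site was a median of 22132 bp from the 48 hpf sites that overlapped no 24 hpf site, and 20348 bp from a shared 48 hpf site to its nearest shared neighbour. At 24 hpf these medians were 23621 and 20789 bp. For sites with no peak at all at the other stage they were 21787 bp at 48 hpf (822 sites) and 24454.5 bp at 24 hpf (1923 sites). The nearest shared site was over 100 kb away for 9.18% of the 48 hpf sites that overlapped no 24 hpf site, against 6.81% of the shared 48 hpf sites. At 24 hpf these shares were 10% and 6.86%. Within 5 kb the order was the other way: a shared site lay that near to 13.5% of these stage-only sites at 48 hpf and to 12.6% of the shared ones, and at 24 hpf to 12.4% and 11.5%. Within 1 kb the shares were 2.18% of the stage-only and 4.0% of the shared sites at 48 hpf, and 3.31% and 2.82% at 24 hpf. Stage-only sites thus lay over 100 kb away more often at both stages, while the order at the near end depended on the distance and the stage. These sites were also weaker, and the part of strength in this was not tested.

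Chromosomes took nearly equal shares of the peaks at both stages. Over chromosomes 1 to 25 and 1 class of other sequences (unplaced scaffolds and the mitochondrial genome), the largest difference in mean share was 0.166 percentage points and the median 0.0432. Without 24 hpf replicate 1 the largest difference was 0.232 points, on chromosome 24, with 3.18% and 3.04% at 48 hpf against 2.88% in 24 hpf replicate 2. The 48 hpf replicates differed from each other by up to 0.151 points and the 24 hpf replicates by up to 0.356 points. In 6 of the 26 classes (23.1%) the libraries of the stages did not overlap. Shares were higher in both 48 hpf libraries for chromosomes 11, 17 and 18, and lower for chromosomes 22 and 25 and the other sequences. For the other sequences the nearest values were 1.97% in 48 hpf replicate 2 and 1.98% in 24 hpf replicate 2. The difference was greater than both replicate spreads in 3 classes. Adjusted by Benjamini-Hochberg over the 26 classes, the exact permutation p was 1.0 for each of them.

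Chromosome 22 had the largest difference in mean share when all 4 libraries were used. It held 3.18% and 3.10% of the peaks in the 48 hpf replicates, against 3.36% and 3.24% in the 24 hpf replicates. Without 24 hpf replicate 1 it no longer had the largest difference. Chromosome 25, which had the fewest sites of any chromosome at 48 hpf, 697, against 679 at 24 hpf, had 2.84% and 2.87% of the peaks at 48 hpf, against 2.97% and 2.98% at 24 hpf. The fewest sites at 24 hpf were on chromosome 24. Chromosome 5 held the most sites at 48 hpf, 1307, against 1223 at 24 hpf. Chromosome 7 held 1273 sites at 48 hpf and 1243 at 24 hpf, the most of any chromosome at 24 hpf.

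The density of sites differed far more between chromosomes than between stages. It ranged over 10.9 to 19.9 sites per Mb at 48 hpf and 10.5 to 18.7 sites per Mb at 24 hpf, measured to the last peak of a chromosome. Chromosome 4 was lowest, with 839 sites at 48 hpf and 803 at 24 hpf. Chromosome 23 was highest, with 923 sites at 48 hpf and 866 at 24 hpf. With sites of both replicates at each stage, every chromosome had more at 48 hpf, by a ratio of 1.02 to 1.12, with chromosome 24 at the upper end (737 sites at 48 hpf and 660 at 24 hpf). The genome as a whole had 23959 sites at 48 hpf and 22498 at 24 hpf, an order that does not carry over to single libraries. The share of merged regions with a site of each stage ran from 58.1% on chromosome 22 to 66.6% on chromosome 5.

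**Figure D5:**
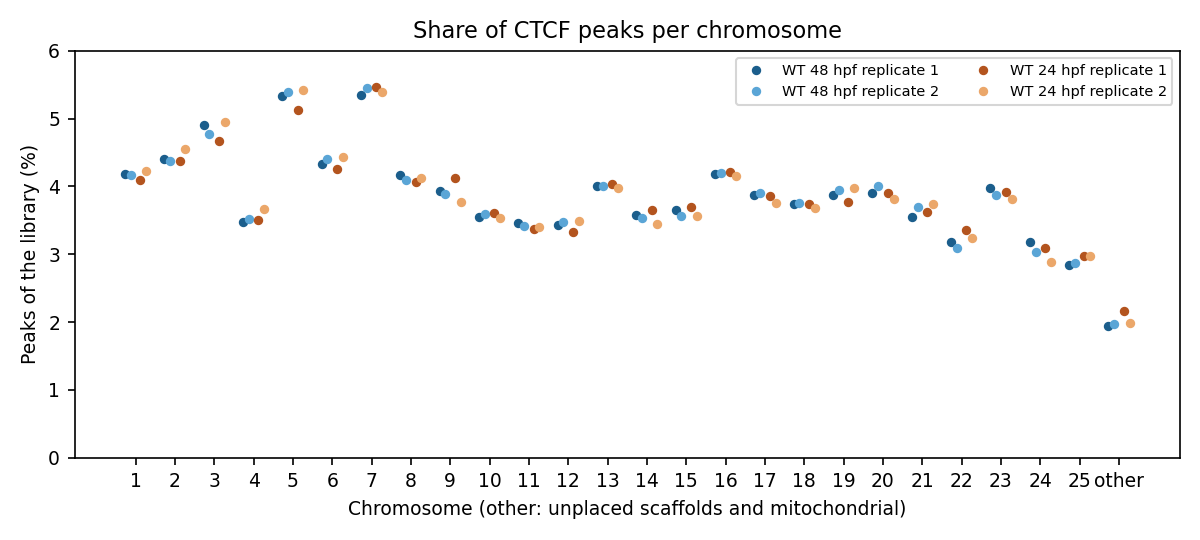
Share of the peaks of each library (%, y axis) on each chromosome and on other sequences (x axis), 1 point per library, 48 hpf to the left of 24 hpf. The 4 points of a chromosome lie within a narrow band, and chromosome 22 has the largest difference between stage means over all 4 libraries, 0.166 percentage points. Without 24 hpf replicate 1 the largest difference is on chromosome 24.

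Along the chromosomes, windows of 1 Mb had similar numbers of sites. Of the 1353 windows, 772 had more sites at 48 hpf, 390 more at 24 hpf and 191 equal numbers, and 827 (61.1%) were within 2 sites of each other. Spearman's rho of the counts was 0.922 across windows, which share length of assembled sequence and base composition, and 0.966 across the 282 windows of 5 Mb. With 24 hpf replicate 1 alone standing for its stage, rho in windows of 1 Mb was 0.789. The densest window was the first Mb of chromosome 22, with 60 sites at 48 hpf and 59 at 24 hpf.

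The windows with the largest differences were the following, chosen for that. Between 26 and 27 Mb of chromosome 16 there were 37 sites at 48 hpf and 21 at 24 hpf, from 46 and 42 peaks in the 48 hpf replicates, against 68 and 26 in the 24 hpf replicates. Between 66 and 67 Mb of chromosome 5 there were 23 sites at 48 hpf and 10 at 24 hpf, from 28 and 25 peaks at 48 hpf, against 43 and 14 at 24 hpf. In both windows the raw counts at 48 hpf lay between those at 24 hpf, as the lengths of the whole lists did. Relative to list length, both 24 hpf libraries had fewer peaks there than both 48 hpf libraries. Both windows were chosen for having fewer 24 hpf sites. In the other direction, chromosome 6 had 23 sites at 48 hpf and 31 at 24 hpf between 9 and 10 Mb, from 30 and 32 peaks at 48 hpf, against 62 and 34 at 24 hpf. Chromosome 1 had 22 sites at 48 hpf and 29 at 24 hpf between 57 and 58 Mb, from 30 and 32 peaks at 48 hpf, against 76 and 32 at 24 hpf. In the chromosome 6 window both 24 hpf libraries had more peaks in raw counts than both 48 hpf libraries, at the nearest 34 against 32. Relative to list length, 24 hpf replicate 1 had slightly fewer peaks there than both 48 hpf libraries, and 24 hpf replicate 2 had more. In the chromosome 1 window both 24 hpf libraries had more peaks relative to list length. The deep 24 hpf replicate 1 had the most peaks in each of these windows, and the share of all windows with such an order is not given here.

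The study modelled the region around HoxD. The HoxD genes encode transcription factors that pattern the body axis and fins. The HoxD window of chromosome 9 had 30 sites at 48 hpf and 29 at 24 hpf, with 24 shared regions (68.6%, beside 62.6% over the genome). A further 6 regions held a 48 hpf site only and 5 held a 24 hpf site only. Its peaks numbered 34 and 42 at 48 hpf, against 77 and 35 at 24 hpf. The numbers of peaks of the stages overlapped.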

How the data were processed

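CTCF ChIPmentation peaks were analysed in whole WT embryos at 48 hpf (n = 2 libraries) and 24 hpf (n = 2 libraries); the ctcf-/- libraries were not used here. The authors aligned reads to GRCz10 (danRer10) using Bowtie2, discarded pairs that lay far apart, and called peaks with MACS2, 1 list per library, at an FDR of 0.001. An input control is not given in the sources used here. Fold enrichment as deposited by the authors is a linear ratio of the summit pileup to the local background of the same library. The −log10 p and −log10 q deposited by the authors belong to the summit, with q adjusted within a library. Positions, as deposited, were start, end and summit. No value is normalized between libraries, so strength was compared as a percentile within a list.

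Pileup and local background were solved from fold enrichment and −log10 p, to within 0.002 of the deposited value. The lowest local background of a list was taken as that of the genome, and it was used as a measure of relative depth. Neighbouring distances around 5 kb, and ranks over the same regions, were examined after the data had been seen. Differences between stages were tested by exact two-sided permutation over libraries, with Benjamini-Hochberg adjustment over chromosomes. Named sites were the 5 strongest shared ones, the 3 strongest without a peak at the other stage, the 3 with the most distant summits, the extreme chromosomes, the 2 extreme windows in each direction and a window that the study modelled; a further window is not reported here. The members and lists were chosen with earlier results of these data known. Alternatives changed the q threshold, list length, overlap rule, sequences and replicates. The functions were tested on simulated data. Python 3.11.15, numpy 2.4.6, pandas 2.3.3, scipy 1.17.1 and matplotlib 3.10.9 were used.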

Additional observations from a re-analysis of the deposited data

How the results depend on the processing

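Of 123 values recomputed under alternative settings, 4 turned sign and 25 moved, counts by over 1.5 times and most other values by more than the spread between replicates; for the differences in width and offset only the sign was judged, and their sizes follow. The difference in median width (48 hpf minus 24 hpf, -0.5 bp) was 0.5 bp with peaks of −log10 q of at least 5 and ran from -17.0 to 16.0 bp when 1 library was left out, 16.0 bp being the value without 24 hpf replicate 1. At the same 1-peak regions it was -30 bp, and with lists of equal length -33.5 bp. The difference in summit offset (-0.0734% of width) was 0.114% with lists of equal length and ran from -0.283% to 0.136% with 1 library left out, the last without 24 hpf replicate 1. Numbers of sites ran from 23959 to 33130 at 48 hpf and from 22498 to 67512 at 24 hpf with 1 library left out, and were 39776 at 48 hpf and 70862 at 24 hpf with a peak in either replicate. At −log10 q of at least 10, 24 hpf had 14693 sites and 3 chromosome classes were apart. With lists of equal length 8 classes were apart. Shared regions were 32662 (42.5% of the merged regions) with either replicate and 18372 to 22518 (32.8% to 58.0%) with 1 library left out. Their share was 49.2% with reciprocal overlap of 50%, 55.2% with summits within 100 bp and 59.1% with lists of equal length. Spearman's correlation of the 1 Mb windows was 0.864 with reciprocal overlap of 50%, 0.845 with either replicate, and 0.789 to 0.911 with 1 library left out. Median spacing at 48 hpf was 15765.8 bp at q of 5, 20219.5 bp at q of 10, 17710.5 bp with equal lists, 16693 bp with summits within 100 bp, 16559.2 bp with reciprocal overlap, 10173 bp with either replicate, 15226 bp between edges and 12089 to 15581.2 bp with 1 library left out. At 24 hpf it was 24812.8 bp at q of 10, 23466 bp with equal lists, 23029.5 bp with reciprocal overlap, 5871.5 bp with either replicate and 6258.5 to 17106.5 bp with 1 library left out. The 24 hpf spacing was also 17360.5 bp at q of 5, 20223.5 bp with summits within 100 bp and 16690 bp between edges. These 24 hpf values were not counted as moved, since the spread between replicates was wider at 24 hpf than at 48 hpf. With 1 library left out, the remaining library of its stage needs no partner while the other stage keeps its rule, so the stages are not compared in these settings; with a peak in either replicate, both stages follow 1 rule and the order of the spacing turned. Ranked over the same regions, 667 regions were higher at 48 hpf, against 402 in whole lists. Without 24 hpf replicate 1, 9274 regions were wider at 48 hpf, against 904 with it. The first of these 2 counts asks for less, since only 1 library of 24 hpf has to be narrower. The labels do not say whether replicates of the same number were processed together. Pearson's r of deviations between same-numbered replicates was 0.0134 over 16803 regions, which cannot settle this. A replicate block gave a width difference of -0.5 bp, an offset difference of -0.0734% and a largest share difference of 0.166 points. Settings for window density, summit offset, ranks and the width split were added after seeing the data. The motif alternative was not run, since no genome of the files' build was used here. Depth limits absence: a missing peak in the shallow 24 hpf replicate 2 does not show a missing site. Absence from both 24 hpf libraries includes absence from the deep 24 hpf replicate 1, so counts of regions absent from a stage do not rank the stages.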
